A study of Arabidopsis thaliana with 12 samples.

Results

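MCCA, MCCB and IVD encode mitochondrial enzymes of the breakdown of leucine, a branched-chain amino acid, and ETFQO encodes one that passes the electrons on to respiration. The 4 genes were taken by name, with earlier results of these data known, and each had exactly 1 probe set tied to it alone, among 13356 genes with a probe set of their own and 22746 probe sets tested. MCCA is AT1G03090, MCCB is AT4G34030, IVD is AT3G45300 and ETFQO is AT2G43400. Positions are not used here, since the sources name no genome build.

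RNA was taken from whole 14-day-old Arabidopsis thaliana seedlings, ecotype Col-0, of the line 35S:HF-RPL18B, which all groups share. This line makes ribosomal protein L18B with an amino-terminal His6-FLAG tag from the near-constitutive 35S promoter, so that ribosomes and the mRNAs on them can be captured on anti-FLAG beads. The seedlings, grown with sucrose in the medium in long days, were kept in light for 1 h, put in darkness for 1 h from the middle of the light period, or given that darkness and then 10 min of light (reillumination). RNA of the clarified extract is called total RNA, and RNA eluted from the beads, labelled IP by the submitters, is called polysomal RNA. Each condition has 2 arrays of each pool, from 2 independent biological replicate experiments per the labels, which makes 6 groups and 12 Affymetrix arrays. The captured ribosomes come from all cells in which the promoter is active, and whole seedlings mix organs, so more cells with a transcript and more transcript per cell cannot be told apart.

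Leucine is first transaminated, and its keto acid is turned into isovaleryl-CoA by the branched-chain keto acid dehydrogenase complex. Isovaleryl-CoA dehydrogenase, encoded by IVD, then oxidizes it and hands electrons to the electron transfer flavoprotein. ETFQO, the electron-transfer flavoprotein:ubiquinone oxidoreductase, moves these electrons into the ubiquinone pool of the mitochondrial inner membrane. Methylcrotonyl-CoA carboxylase, which takes the next product of leucine, is built from a biotin-carrying alpha subunit encoded by MCCA and a beta subunit encoded by MCCB. In plants this route is known as a source of electrons for respiration when carbohydrate runs short, as in prolonged darkness.

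The values are log2 expression after robust multi-array averaging (RMA), which makes the distributions of the arrays alike, so each change is relative to the rest of the array. Array medians lay between 6.04 and 6.19 and lower quartiles between 4.07 and 4.17, so the 4 genes, whose lowest value was 7.0, lay above the middle of the array throughout. Of the marker genes looked at, 1 of 7 for leaves and 2 of 7 for roots could be measured. LHCB4.1, of the light harvesting antenna, read 12.75 to 13.45, and PYK10, a beta-glucosidase gene of roots, read 12.91 to 13.37. Both lay far above the array medians. EXP7, a root hair expansin gene and the other root marker, read 4.45 to 5.94, below every array median. RNA of roots is therefore shown here by PYK10 alone. None of these 3 was called between darkness and light in either pool. Called means an adjusted p under 0.05 in limma, a linear model fitted to all probe sets, with Benjamini-Hochberg adjustment over the 22746, and errors after ± are standard errors of this fit with n = 2 arrays per group.

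All 4 transcripts were more abundant after 1 h of darkness, in total and in polysomal RNA, and were still above their light level after 10 min of returned light. MCCA changed most, rising to 3.12 times its light level in total RNA and 4.38 times in polysomal RNA. IVD rose to 2.70 and 2.81 times, MCCB to 2.04 and 2.67 times and ETFQO to 1.62 and 1.61 times. All 4 were called in both pools, where 4.38% of all probe sets were called higher in total RNA and 8.49% in polysomal RNA. Since the genes were chosen with earlier results of these data known, the count of 4 of 4 is a description and no independent support, here and in the comparisons that follow.

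**Figure D1:**
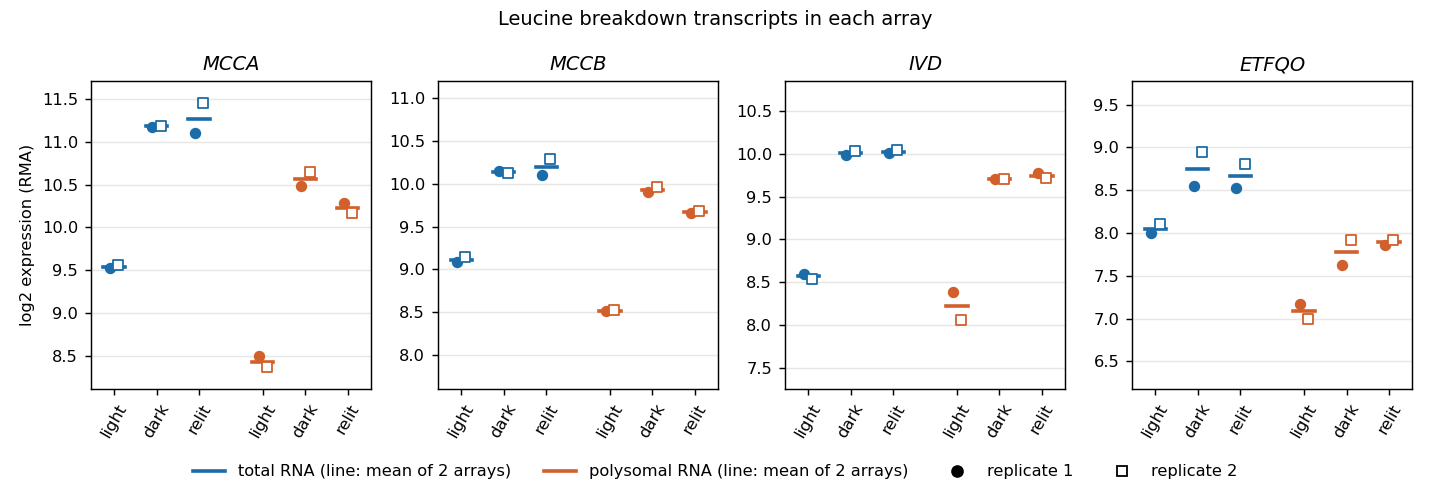
Level of each of the 4 transcripts in every array (vertical axis, log2 expression after RMA, with its own range in each panel because levels of different probe sets cannot be compared). Blue marks total RNA and orange polysomal RNA, filled circles are replicate 1, open squares replicate 2 and short lines the mean of 2 arrays; in both pools the light arrays lie below all dark and relit arrays of that pool.

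For the alpha subunit of the carboxylase, MCCA read log2 9.52 and 9.56 in light total RNA, 11.17 and 11.19 in dark total RNA, and 11.10 and 11.45 in reilluminated total RNA, replicate 1 first. In polysomal RNA MCCA read 8.50 and 8.37 in light, 10.48 and 10.65 in darkness, and 10.28 and 10.17 after reillumination. The 2 light arrays were the lowest of their pool, the dark and reilluminated arrays of total RNA overlapped, and in polysomal RNA both reilluminated arrays lay below both dark arrays. The change from light to darkness was log2 1.64 ± 0.13 in total RNA (adjusted p = 1.56e-05) and 2.13 ± 0.13 in polysomal RNA (adjusted p = 2.12e-06). By size of the rise MCCA stood at rank 93 of the 22746 probe sets in total RNA and at rank 50 in polysomal RNA. Within replicates 1 and 2 the change was 1.65 and 1.63 in total RNA, and 1.99 and 2.28 in polysomal RNA.

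For the beta subunit, MCCB read log2 9.08 and 9.14 in light total RNA, 10.15 and 10.12 in darkness, and 10.10 and 10.29 after reillumination. In polysomal RNA MCCB read 8.51 and 8.52, then 9.90 and 9.96, and then 9.66 and 9.68. The order of the groups was that of MCCA in both pools, again with the reilluminated polysomal arrays between the light and the dark ones. MCCB rose by 1.03 ± 0.10 in total RNA (adjusted p = 8.11e-05) and by 1.42 ± 0.10 in polysomal RNA (adjusted p = 6.62e-06). The 95% interval of this rise was 0.80 to 1.25 in total and 1.19 to 1.64 in polysomal RNA, where those of MCCA were 1.36 to 1.92 and 1.85 to 2.41. The intervals of the 2 subunits of the complex did not overlap in either pool, and the difference between the probe sets itself was not tested.

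For the dehydrogenase that acts just before the carboxylase, IVD read log2 8.60 and 8.54 in light total RNA, 9.98 and 10.03 in darkness, and 10.01 and 10.04 after reillumination. In polysomal RNA IVD read 8.38 and 8.06, then 9.70 and 9.71, and then 9.77 and 9.72. The widest gap between replicates of IVD was that of the light polysomal arrays, and it was small beside the distance to the dark arrays. IVD rose by 1.43 ± 0.12 in total RNA (adjusted p = 1.91e-05) and by 1.49 ± 0.12 in polysomal RNA (adjusted p = 1.04e-05). Without the light polysomal array of replicate 1 the rise in polysomal RNA was 1.65, and without that of replicate 2 it was 1.33, and IVD stayed called in both.

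For the oxidoreductase that takes the electrons, ETFQO read log2 8.00 and 8.10 in light total RNA, 8.55 and 8.95 in darkness, and 8.52 and 8.81 after reillumination. In polysomal RNA ETFQO read 7.17 and 7.0, then 7.63 and 7.92, and then 7.86 and 7.92. The groups of darkness and light did not overlap, but replicate 2 lay above replicate 1 in all dark and reilluminated groups. ETFQO rose by 0.70 ± 0.16 in total RNA (adjusted p = 0.0155) and by 0.69 ± 0.16 in polysomal RNA (adjusted p = 0.0102). These calls did not hold in every fit with 1 array left out, and such a fit leaves 1 array in a group. In total RNA the change was 0.65 and 0.75 without the light array of replicate 1 or 2. A lost call therefore need not mean a smaller change. In total RNA the adjusted p was 0.0908 and 0.0705 without the light array of replicate 1 or 2, and 0.149 without the dark array of replicate 2, where the change was 0.50. In polysomal RNA it was 0.0856 without the light array and 0.0953 without the dark array of replicate 2.

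All 4 genes had dark arrays above both light arrays in each pool, which held for 20.2% of all probe sets in total and 25.3% in polysomal RNA, so with 2 arrays a group this separation alone is common. The order of the rises was MCCA, IVD, MCCB and ETFQO in both pools by the fitted values. The intervals of IVD, 1.18 to 1.69 in total and 1.24 to 1.75 in polysomal RNA, overlapped those of MCCB in both pools, and that of MCCA in total RNA. The interval of ETFQO, 0.36 to 1.04 in total and 0.35 to 1.03 in polysomal RNA, lay below those of MCCA and IVD in both pools. In total RNA it overlapped that of MCCB.

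**Figure D2:**
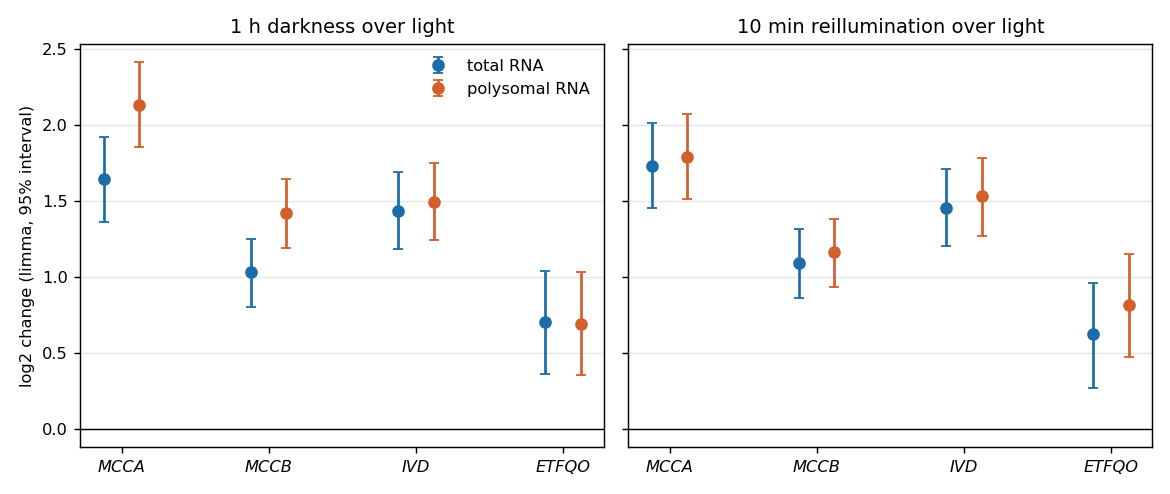
Change of each of the 4 transcripts against light (vertical axis, log2, points with 95% intervals of the limma fit) after 1 h of darkness (left) and after 10 min of reillumination (right), in total RNA (blue) and polysomal RNA (orange). All intervals lie above 0. In darkness the polysomal point lies above the total point by 0.49 for MCCA, 0.39 for MCCB and 0.06 for IVD, and none of these differences was called.

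The return of light for 10 min tests whether the transcripts had begun to come down. In total RNA they had not moved by a detectable amount. The change from darkness to reillumination was 0.09 for MCCA (95% interval -0.19 to 0.37), 0.06 for MCCB (-0.17 to 0.28), 0.02 for IVD (-0.24 to 0.27) and -0.08 for ETFQO (-0.43 to 0.26). None of the 4 was called by limma (0 of 4, and 0 of 4 at an unadjusted p under 0.05), where 0.0% of all probe sets were called in either direction and 980 had an unadjusted p under 0.05. For MCCA, MCCB and IVD these intervals leave out a return to the light level, which would be a fall as large as the rise before it. For ETFQO the interval leaves out a fall of 0.70, the fitted rise. The interval of that rise began at 0.36, so these values alone do not settle a full return of ETFQO.

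In polysomal RNA the carboxylase subunits were lower after reillumination than in darkness in both replicates, but neither passed the test. MCCA was at -0.34 ± 0.13 (95% interval -0.62 to -0.06, adjusted p = 0.14), with -0.20 in replicate 1 and -0.48 in replicate 2. MCCB was at -0.26 ± 0.10 (-0.49 to -0.04, adjusted p = 0.158), with -0.24 and -0.29. IVD, at 0.04 ± 0.12 (-0.22 to 0.29), and ETFQO, at 0.12 ± 0.16 (-0.23 to 0.46), were on the other side of 0. Of the 4 genes 0 were called by limma and 2 had an unadjusted p under 0.05, beside 7.83% of all probe sets called in either direction and 21.6% with an unadjusted p under 0.05. MCCA and MCCB were among the 24.6% of probe sets whose reilluminated arrays both lay below both dark arrays, and IVD among the 24.3% with the opposite order. With the replicate as a block the adjusted p were 0.0772 for MCCA and 0.107 for MCCB.

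Against the seedlings kept in light for 1 h, the reilluminated seedlings still held all 4 transcripts at a higher level. By the labels no light group was kept for the further 10 min. In total RNA MCCA was 3.32 times, IVD 2.74 times, MCCB 2.12 times and ETFQO 1.53 times the light level, and all 4 were called, beside 4.07% of all probe sets called higher. In polysomal RNA the values were 3.46 times for MCCA, 2.89 times for IVD, 2.23 times for MCCB and 1.75 times for ETFQO, again 4 of 4, beside 4.78% of all probe sets. These comparisons use the same light arrays as those of darkness. ETFQO was at 0.62 ± 0.16 in total RNA (adjusted p = 0.0329) and was not called there without the light array of replicate 1 (0.156) or 2 (0.121), without the reilluminated array of replicate 2 (0.248, with a change of 0.47), or in a fit of the total RNA arrays alone (0.072). In polysomal RNA ETFQO was at 0.81 ± 0.16 (adjusted p = 0.0075), and the adjusted p was 0.0732 without the light array and 0.056 without the reilluminated array of replicate 2.

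Polysomal over total RNA within a condition shows how much of a transcript was recovered with ribosomes, relative to other transcripts. All 4 transcripts were under-represented on the captured ribosomes in light. In light the log2 ratio was -1.11 ± 0.13 for MCCA (adjusted p = 9.84e-05), -0.96 ± 0.16 for ETFQO (adjusted p = 0.000734), -0.60 ± 0.10 for MCCB (adjusted p = 0.000998) and -0.36 ± 0.12 for IVD (adjusted p = 0.0349). All 4 were called lower, beside 17.6% of all probe sets. IVD lost this call when the total array in light of replicate 1 (adjusted p = 0.15) or 2 (0.0826) was left out. It was also lost without the light polysomal array of replicate 2, where the ratio was -0.20 (adjusted p = 0.284). Polysomal arrays had medians below those of total RNA, by 0.11 in light, 0.05 in darkness and 0.11 after reillumination, and with each array centred on its median the ratio of IVD in light was -0.24 (adjusted p = 0.132).

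In darkness the ratio stood closer to 0 for the carboxylase subunits, at -0.61 ± 0.13 for MCCA (adjusted p = 0.00493) and -0.21 ± 0.10 for MCCB (adjusted p = 0.183). It was -0.97 ± 0.16 for ETFQO (adjusted p = 0.00108) and -0.30 ± 0.12 for IVD (adjusted p = 0.0879), so 2 of 4 were called lower, beside 11.8% of all probe sets. After reillumination the ratios were -1.05 ± 0.13 for MCCA (adjusted p = 0.000215), -0.77 ± 0.16 for ETFQO (adjusted p = 0.00368), -0.53 ± 0.10 for MCCB (adjusted p = 0.00287) and -0.28 ± 0.12 for IVD (adjusted p = 0.10). Here 3 of 4 were called lower, beside 14.6% of all probe sets. RNA integrity can be read from control transcripts with probe sets at both ends. The 3' signal exceeded the 5' signal, on the log2 scale, by medians of 4.24 in total and 3.77 in polysomal RNA for actin, 0.98 and 1.07 for GAPDH, and 1.58 and 1.38 for ubiquitin (n = 6 arrays each). The part of these differences between the pools in the ratios of the 4 genes was not tested.

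**Figure D3:**
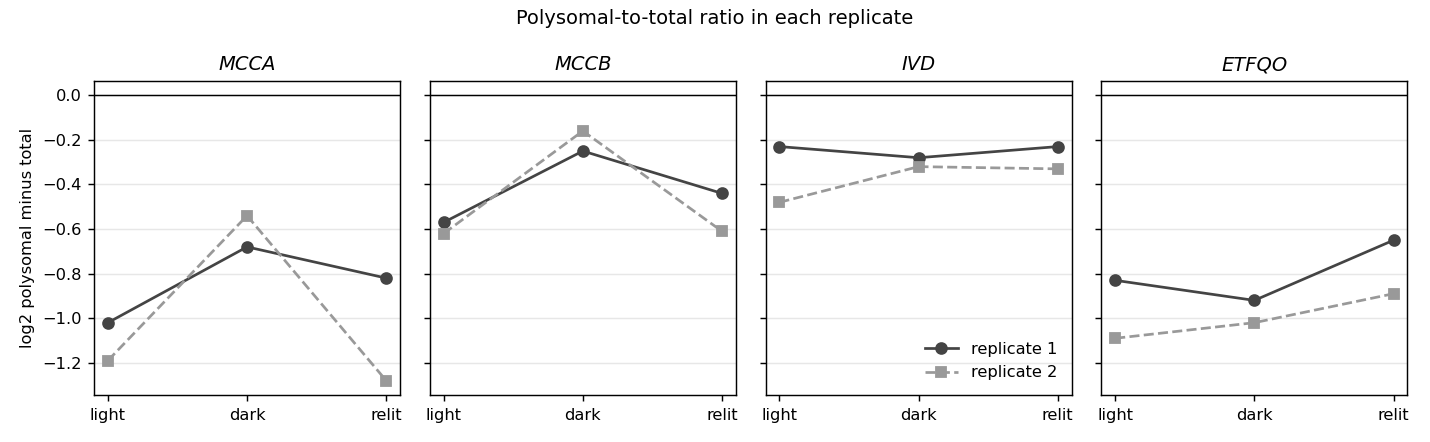
Log2 polysomal minus total expression of each of the 4 transcripts (vertical axis) in light, darkness and after reillumination (horizontal axis), with 1 line per replicate. All points lie below 0; MCCA and MCCB peak in darkness in both replicates, IVD in replicate 2 by a narrow margin and ETFQO in neither.

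Whether darkness changed the recovery of each transcript with ribosomes, relative to other transcripts, is asked by the change of this ratio. It is an interaction of pool and condition, and a shift common to all transcripts is hidden by RMA. By replicate, the ratio of MCCA was -1.02 and -1.19 in light, -0.68 and -0.54 in darkness, and -0.82 and -1.28 after reillumination. That of MCCB was -0.57 and -0.62, then -0.25 and -0.16, and then -0.44 and -0.61. Both subunits therefore had their highest ratio in darkness in each replicate. The change from light to darkness was 0.49 ± 0.18 for MCCA (95% interval 0.10 to 0.89, adjusted p = 0.186) and 0.39 ± 0.14 for MCCB (0.07 to 0.71, adjusted p = 0.19). Neither passed the test over all probe sets. Under the replicate block the adjusted p were 0.0979 for MCCA and 0.117 for MCCB. IVD was at 0.06 (-0.30 to 0.42) and ETFQO at -0.01 (-0.49 to 0.48), both not called.

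From darkness to reillumination the ratio of MCCA shifted by -0.43 ± 0.18 (95% interval -0.83 to -0.04, adjusted p = 0.301) and that of MCCB by -0.32 ± 0.14 (-0.64 to 0.00, adjusted p = 0.35). IVD was at 0.02 (-0.34 to 0.38) and ETFQO at 0.20 (-0.28 to 0.69). Under the replicate block the adjusted p were 0.175 for MCCA and 0.238 for MCCB. In each of these 2 comparisons 0 of the 4 genes were called by limma and 2 had an unadjusted p under 0.05. Of all probe sets 1.09% and 0.994% were called in either direction, and 17.1% and 14.1% had an unadjusted p under 0.05. Over the whole course, from light to reillumination, the 4 ratios differed by 0.06 to 0.19. Here 0 of 4 were called and 0 of 4 had an unadjusted p under 0.05. Beside this, 0.0% of all probe sets were called and 2.73% had an unadjusted p under 0.05.

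Ordered by their mean, MCCA and MCCB had the same series of groups: reilluminated total, dark total, dark polysomal, reilluminated polysomal, light total and light polysomal. Of the neighbours in this order only the first pair overlapped. For IVD the reilluminated polysomal group stood 0.04 above the dark polysomal group, and the reilluminated and dark total groups overlapped. ETFQO differed from the other 3 in that its light total group lay above the dark and reilluminated polysomal groups, by 0.15 over the reilluminated one. Across the 12 arrays, which share pools and conditions, Pearson's r was 0.992 between MCCA and MCCB, 0.967 between MCCB and IVD and 0.739 between IVD and ETFQO, as a description.

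With these 4 included, 85 genes were listed in 7 groups by their known place, and with earlier results of these data known. The groups were branched-chain breakdown, electron transfer, other amino acid breakdown, branched-chain synthesis, biotin, starvation signalling and dark-inducible expression. Counts by list are therefore descriptions and no independent support. Only 29 of the 85 could be measured by a probe set tied to them alone, among them 0 of the 9 biotin genes, so the others are not analysed here. Of the other 6 measured genes of branched-chain breakdown 1 was called higher in each pool. Of all probe sets 4.38% were called higher in total and 8.49% in polysomal RNA. The median change of the 6 was 0.20 in total and 0.14 in polysomal RNA, beside -0.02 over all probe sets in both. The called gene was ALDH6B2, which encodes an aldehyde dehydrogenase of valine breakdown. ALDH6B2 read 10.55 and 10.65 in light and 11.15 and 11.42 in dark total RNA, and 9.75 and 9.77 against 10.44 and 10.95 in polysomal RNA.

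ALDH6B2 rose by 0.69 ± 0.17 in total RNA (adjusted p = 0.0273) and 0.93 ± 0.17 in polysomal RNA (adjusted p = 0.00324). The total RNA call was lost without the light array of replicate 1 (adjusted p = 0.133) or 2 (0.106) and without the dark array of replicate 2 (0.203). AT4G20930 was at 0.37 ± 0.13 in total RNA (adjusted p = 0.0918) and AT4G16800 at 0.39 ± 0.16 in polysomal RNA (adjusted p = 0.136). With the replicate as a block these 2 were called in those pools, which makes 2 of the 6 in each, beside 6.9% of all probe sets called higher under the block in total and 12.4% in polysomal RNA. AT5G09300, listed for the branched-chain keto acid dehydrogenase complex, was at -0.15 and 0.11 in total and polysomal RNA. AT2G26800, listed as HML1, was at 0.25 and 0.10 and read 8.29 to 8.73 over all arrays. AT4G31810 was at -0.13 and -0.28, and none of these genes was called. AT5G09300 read only 4.65 to 5.71 over all arrays, below every array median, so its missing call says little.

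ETFQO takes its electrons from the electron transfer flavoprotein, whose alpha and beta subunits are encoded by ETFALPHA and ETFBETA. ETFBETA read 7.97 and 7.69 in light and 8.27 and 8.32 in dark total RNA, a rise of 0.47 ± 0.12 (adjusted p = 0.0258). In polysomal RNA ETFBETA was at 0.35 ± 0.12 and not called (adjusted p = 0.0596), and was called with the replicate as a block. ETFALPHA was at -0.20 ± 0.12 and 0.07 ± 0.12 (adjusted p = 0.372 and 0.782). D2HGDH, for D-2-hydroxyglutarate dehydrogenase, which also feeds the flavoprotein, was at -0.09 and 0.29, not called. ETFBETA was not called when the light total array of replicate 2 was left out (change 0.32, adjusted p = 0.229), without the dark total array of replicate 1 (0.067) or 2 (0.137), and in a fit of the total RNA arrays alone (0.0725).

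**Figure D4:**
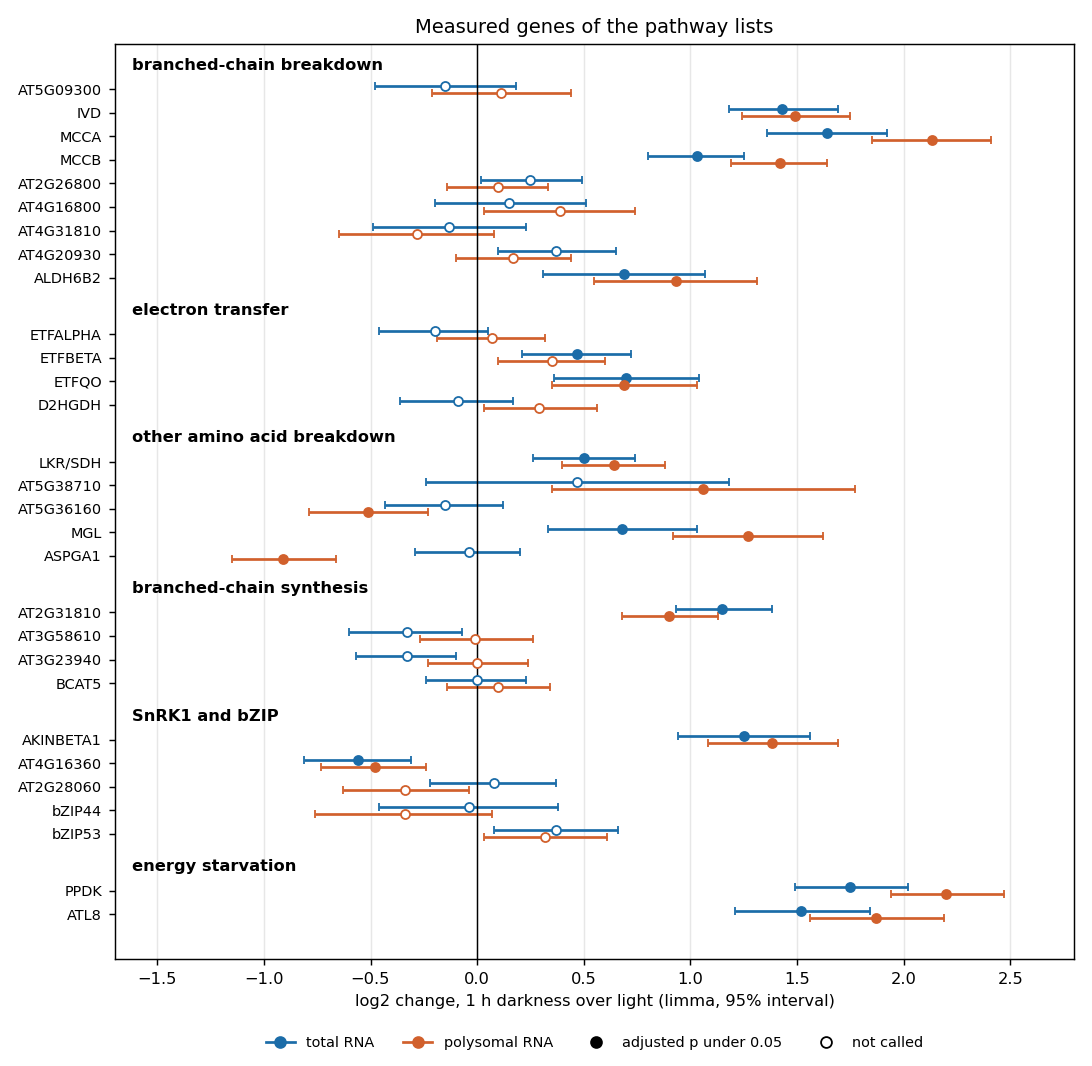
Change from light to 1 h of darkness (horizontal axis, log2, points with 95% intervals of the limma fit) for each measured gene of the lists, in total RNA (blue) and polysomal RNA (orange), with filled points for an adjusted p under 0.05. MCCA, MCCB and IVD stand to the right of the other genes of branched-chain breakdown, of which ALDH6B2 is the nearest, and PPDK lies close to MCCA.

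Breakdown of other amino acids went in both directions. In polysomal RNA 3 of 5 measured genes were called higher and 2 lower, beside 8.49% and 8.68% of all probe sets, and in total RNA 2 higher and 0 lower, beside 4.38% and 5.07%. MGL, for methionine gamma-lyase, rose by 1.27 ± 0.16 in polysomal RNA (adjusted p = 0.000284), and was at 0.68 ± 0.16 in total RNA (adjusted p = 0.0208). LKR/SDH, for the bifunctional enzyme that starts lysine breakdown, rose by 0.64 ± 0.11 in polysomal RNA (adjusted p = 0.00188) and was at 0.50 ± 0.11 in total RNA (adjusted p = 0.0134). The total RNA call for MGL was lost without any of the 4 dark and light total arrays (adjusted p = 0.0502 to 0.162). That for LKR/SDH was lost without either light total array (0.0845 and 0.0552) or the dark array of replicate 1 (0.0781).

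AT5G38710 was called in polysomal RNA only just (1.06 ± 0.32, adjusted p = 0.0433), and not without either light or either reilluminated array of that pool or the dark array of replicate 2. It was also not called with the arrays centred on their medians, with quantile normalization within each pool or with trended robust moderation (adjusted p = 0.0535 to 0.255 over these 8 settings). ASPGA1, which encodes an asparaginase, fell in polysomal RNA by 0.91 on the log2 scale (adjusted p = 0.000243), from 8.60 and 8.70 in light to 7.74 and 7.75 in darkness. In total RNA ASPGA1 read 8.47 and 8.44 in light and 8.45 and 8.38 in darkness. After reillumination ASPGA1 was back at 8.67 and 8.60 in polysomal RNA, where MCCA, MCCB and IVD stayed far above light. AT5G36160 was at -0.51 ± 0.13 in polysomal RNA (adjusted p = 0.0163), a call lost without either light array of that pool (0.0647 and 0.0872) or the dark array of replicate 1 (0.11).

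Of the 4 measured genes of branched-chain synthesis, a route of the chloroplast, 1 was called higher in each pool and 0 lower. In total RNA 4.38% of all probe sets were called higher and 5.07% lower, and in polysomal RNA 8.49% and 8.68%. AT2G31810 rose by 1.15 ± 0.10 in total RNA (adjusted p = 3.64e-05) and 0.90 ± 0.10 in polysomal RNA (adjusted p = 0.000153). AT2G31810 read 9.09 and 9.12 in light, 10.10 and 9.93 in darkness, and 10.45 and 10.44 after reillumination in polysomal RNA. AT3G58610 and AT3G23940 were both at -0.33 in total RNA, with -0.01 and 0.00 in polysomal RNA, and BCAT5, for a branched-chain aminotransferase, was at 0.00 and 0.10.

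The SnRK1 kinase and its partner bZIP factors are known regulators of transcripts for starvation metabolism in Arabidopsis. Of 5 measured genes of this list 1 was called higher and 1 lower in each pool, beside 4.38% and 5.07% of all probe sets in total and 8.49% and 8.68% in polysomal RNA. The list had a median of 0.08 in total and -0.34 in polysomal RNA, where that of all probe sets was -0.02 in both. AKINBETA1, for a regulatory subunit of the kinase, rose by 1.25 ± 0.14 in total and 1.38 ± 0.14 in polysomal RNA (adjusted p = 0.000203 and 7.18e-05). AT4G16360, annotated as KINbeta2, was at -0.56 ± 0.11 and -0.48 ± 0.11 (adjusted p = 0.00918 and 0.0123). Its call in total RNA was lost without the light (0.0921) or dark array (0.0738) of replicate 2, and its call in polysomal RNA without the dark array of replicate 1 (0.084) or the light array of replicate 2 (0.0908). AT2G28060, annotated as KINbeta3, was at 0.08 and -0.34, bZIP53 at 0.37 and 0.32 and bZIP44 at -0.04 and -0.34, none of them called. With the replicate as a block 2 of the 5 were called higher and 1 lower in total RNA, beside 6.9% and 8.9% of all probe sets. In polysomal RNA 2 were called higher and 3 lower, beside 12.4% and 12.8%. The dark-inducible genes PPDK and ATL8, the 2 of 11 measured, rose by 1.75 and 1.52 in total and by 2.20 and 1.87 in polysomal RNA. Between darkness and reillumination in polysomal RNA, where MCCA and MCCB were not called, PPDK was at -0.54 ± 0.12 (adjusted p = 0.02) and ATL8 at -0.62 ± 0.14 (adjusted p = 0.0234). Each of these calls was lost without any of 3 of the 4 arrays compared (adjusted p = 0.086 to 0.149 for PPDK and 0.0906 to 0.161 for ATL8). That of ATL8 was also lost in a fit of the polysomal arrays alone (0.053).

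The genes most like the 4 were sought over the 12 arrays, among 1986 named probe sets whose group means spanned at least 1 on the log2 scale. Likeness was Pearson's r with the mean of the 4 profiles, each centred on its own mean. The 5 highest were AT5G14120 (r = 0.986), AT1G63750 (0.976), AT1G02660 (0.975), AT2G30600 (0.974) and AT1G80380 (0.974). AT1G02660 had the widest span of the 5, at 3.20, and moved by 2.46 in total and 2.62 in polysomal RNA from light to darkness. The other 4 moved by 0.68 to 1.06 in total and by 1.05 to 1.41 in polysomal RNA. The profile of PPDK had an r of 0.959 and rank 14, AT2G31810 an r of 0.959 and rank 15, and ALDH6B2 an r of 0.916 and rank 48. AT4G16360 ran opposite, with an r of -0.946. These values describe arrays that share pools and conditions, and the lower level in polysomal RNA is part of the pattern matched.

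**Figure D5:**
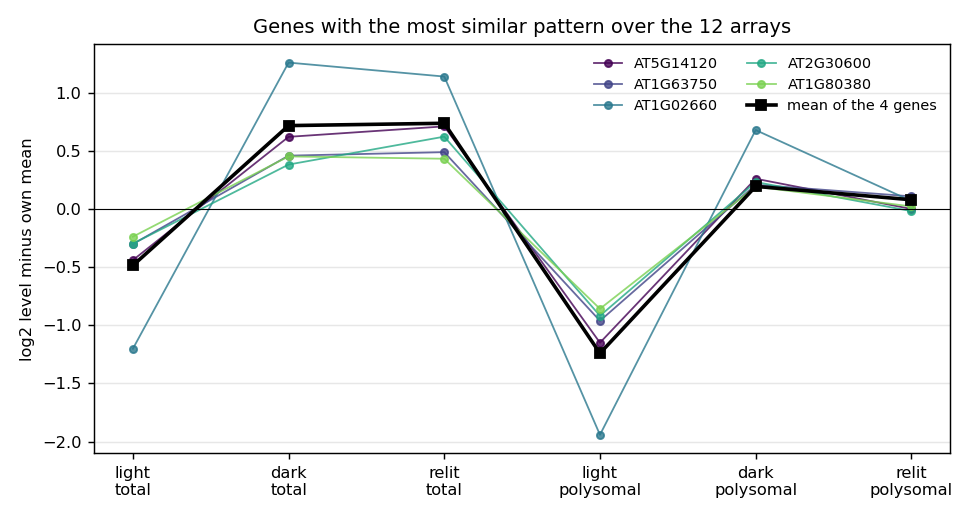
Mean log2 level of each group minus the gene's own mean over the groups (vertical axis) for the 5 genes most like the 4 (thin lines) and for the mean of MCCA, MCCB, IVD and ETFQO (thick black line). All lines are lowest in light polysomal RNA and highest in dark or relit total RNA, and AT1G02660 spans 3.20.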

How the data were processed

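RMA and affy are named, without versions, per the submitters' processing notes. The authors deposited 1 log2 value per probe set and array. No background correction or normalization was added. Of 22810 probe sets, 64 controls were set aside. The platform annotation ties 13513 of the other 22746 to 1 gene and 503 to several, and does not name 8730; names come from RefSeq's TAIR10.1 gene table, which matched 13436.

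In limma 3.58.1 (R 4.3.3), 6 group means were fitted to the 12 arrays, and eBayes moderated the variances (6 residual and 5.48 prior degrees of freedom). All tests were two-sided, and 12 comparisons were made, each adjusted over 22746 probe sets. The fit was tested on simulated data. Figures used Python 3.11.15 and matplotlib 3.10.9. Arrays have no counting depth, and their number limits the precision: the median standard error was 0.134 for a difference and 0.189 for a ratio change.

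Replicate numbers pair the arrays: the difference between replicates 1 and 2 correlated between groups at r = 0.29 to 0.509 in 15 of 15 pairs of groups. Total and polysomal RNA of a number also come from the same clarified extract. The main fit, which gives the errors after ±, does not use this pairing. The fit with the replicate as a block is an alternative.

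The 4 members are given in full. Other genes are counted by list, and named where called in darkness, or all in the pathway lists; the 5 most similar genes were named. Members and lists were chosen with earlier results of these data known. Alternatives were the block, each array left out, centring on array medians, quantile normalization within each pool, a filter on dim probe sets, smaller fits and trended robust moderation.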

Additional observations from a re-analysis of the deposited data

Results flagged for a closer look

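For ASPGA1, which encodes an asparaginase, the effect of darkness differed between the RNA pools by a test of the difference itself. The polysomal-to-total ratio changed by -0.86 ± 0.16 from light to darkness (adjusted p = 0.0354) and by 0.89 ± 0.16 from darkness to reillumination (adjusted p = 0.0323), with the same direction in both replicates. The first call was lost without any of 11 of the 12 arrays (adjusted p of 0.0504 to 0.127), and the second without 9 of them (0.0517 to 0.121), while the values stayed between -0.91 and -0.82 and between 0.76 and 1.03. In fits of only the 4 groups compared the adjusted p were 0.0803 and 0.0835. MCCA, MCCB, IVD and ETFQO had no such call.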

How the results depend on the processing

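The calls of MCCA, MCCB and IVD against light, after darkness and after reillumination, held under 18 of 18 alternatives in both pools. The replicate block changed no call of the 4 genes. The log2 changes of ETFQO ranged, with 1 array left out, from 0.50 to 0.90 (darkness, total RNA), 0.54 to 0.84 (darkness, polysomal), 0.47 to 0.77 (reillumination, total) and 0.73 to 0.89 (reillumination, polysomal), and the third was not called from the total RNA arrays alone (0.62). The ratio of IVD in light ranged from -0.52 to -0.20, and lost its call with median centring (-0.24), quantile normalization within each pool (-0.25) and the light arrays alone (-0.36). With median centring 2 uncalled values of IVD changed sign, to -0.01 for the ratio change from light to darkness and to 0.00 for reillumination over darkness in total RNA.

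Uncalled values near 0 changed sign when 1 array was left out. For reillumination over darkness in total RNA the ranges were -0.08 to 0.27 (MCCA), -0.04 to 0.15 (MCCB), 0.00 to 0.04 (IVD) and -0.28 to 0.11 (ETFQO), and for ETFQO in polysomal RNA -0.03 to 0.26. The ratio change ranged from -0.10 to 0.22 (IVD) and -0.21 to 0.19 (ETFQO) for darkness minus light, from -0.01 to 0.05 (IVD) for reillumination minus darkness, and from -0.12 to 0.23 (MCCA), -0.02 to 0.17 (MCCB) and -0.08 to 0.24 (IVD) for reillumination minus light.

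Counts over all probe sets moved more. With the replicate block the calls were 3593 against 2151 for darkness over light in total RNA, 12 against 0 and 3430 against 1780 for reillumination over darkness in total and polysomal RNA, 3111 against 1800 and 3409 against 2020 for reillumination over light, and 1712 against 247 and 1086 against 226 for the ratio changes into and out of darkness. The latter were 0 and 3 from the arrays of those groups alone, and the first was 440 with trended robust moderation, which called 1 probe set for reillumination over darkness in total RNA. With 1 array left out, darkness over light ranged from 983 to 2089 in total and 2124 to 4044 in polysomal RNA, against 3904 from all arrays. Reillumination over darkness ranged from 0 to 5 and 431 to 1865, reillumination over light from 837 to 1884 and 988 to 2118, and the ratio changes from 0 to 537 and 2 to 357. Polysomal over total RNA ranged from 5200 to 7479 in light (7338 from all arrays), 3367 to 5319 in darkness (5339) and 3971 to 6337 after reillumination (6228). Of 96 calls of other named genes 49 held under every alternative and 0 changed sign. The cause of these changes was not tested.

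With 2 arrays a group, the calls of ETFQO against light did not hold in every fit with 1 array left out. Changes of the polysomal-to-total ratio of the size seen for MCCA and MCCB did not pass the test. A left-out array leaves 1 in its group, assumed to vary like the others. RMA hides a shift common to all transcripts, and 56 of the 85 listed genes had no probe set of their own. Each of the 4 genes has 1 probe set, so the planned comparison of several probe sets of a gene could not be run.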
